A study of Mus musculus with 4 samples.

Results

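The genes described here are 10 members of the actin, myosin and tropomyosin system, picked by symbol: the cytoplasmic actins Actb and Actg1, the myosin light chains Mylpf, Myl6 and Myl12b, the myosin heavy chain Myh9, the tropomyosins Tpm1 and Tpm4, the membrane linker Ezr and the LIM protein Crip2. The list was drawn up with earlier results of these data known, so its calls beside the shares of all genes are descriptions. The members are 10 of the 20171 genes and account for 85 of the 68012 isoforms measured in mouse oocytes, preimplantation embryos and embryonic stem cells. Actin monomers assemble into filaments, and bundles of myosin II, each built from heavy chains that carry an essential and a regulatory light chain, pull on those filaments. Tropomyosins lie along the filament as coiled coils and set which other proteins can bind it, and ezrin ties filaments to the plasma membrane. In the mouse embryo this cortex drives cytokinesis, the flattening of blastomeres against each other at compaction and the sorting of cells to the inside or the outside.

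Single blastomeres were amplified with 1 cell barcode each, and their cDNAs were joined and read on a PacBio instrument (HIT-scISOseq). Each molecule, counted through a unique molecular identifier (UMI), shows the splice pattern of the stretch that was read. Isoforms matching only part of an annotated splice chain made up 41.6% of Actg1 and 58.6% of Myh9 isoform UMIs. The labels give the strain as DBA/2J x C57BL/6J, whereas the design text and the methods name C57BL/6J females and DBA/2NCrl males. The females, 6 to 8 weeks old, had been superovulated with pregnant mare serum gonadotropin (PMSG) and then human chorionic gonadotropin (hCG). Unfertilized oocytes were taken 20 h after hCG, zygotes at 22 to 24 h, early 2-cell embryos (E2C) at 30 to 32 h, late 2-cell embryos (L2C) at 46 to 48 h, 4-cell embryos at 54 to 56 h, 8-cell embryos at 68 to 70 h, 16- and 32-cell embryos at 78 to 80 h and early blastocysts at 88 to 90 h. No group carried a named mutation or drug. The cultured cells were mouse embryonic stem cells (mESC) of 1 line, E14 Tg2A. Each level below is a gene's or isoform's UMIs per 100000 UMIs of a cell, called copies, so it is a share of the cell's RNA and does not show a change in total RNA.

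Of 161 cells, 121 carry the name of an oocyte, zygote or embryo, and these 43 units, each the mean of its cells, stood as replicates. They were 10 oocytes with 9 zygotes, then 5 E2C with 6 L2C embryos, and 5, 4 and 4 embryos at 4-, 8- and 16-cell. For 22 cells of the 32-cell stage, 13 of blastocysts and 5 of mESC no embryo is given, so their levels are shown over cells with no test. No source says that the embryos of a stage came from different females, so p-values measure the spread between these embryos. Depth was 166731 to 389775 UMIs in oocytes and zygotes and 4985 to 105534 in the later cells. Summed over its cells, an embryo was shallowest at L2C embryo 1, a single cell of 17971 UMIs, followed by 4-cell embryo 2 (25411), 8-cell embryo 3 (43857) and 4-cell embryo 3 (61798). The labelled stages were checked against their markers: 6 oocyte genes summed to 1310 to 1955 copies in oocytes and to a median of 78.0 at L2C, while 8 inner cell mass and mESC genes had a median sum of 16.3 in oocytes and 1192 in mESC. The 7 late 2-cell genes went against their name, with a median sum of 17.5 at E2C and 7.001 at L2C. Markers of 2 other sources were scarce, with median sums of at most 0.515 copies for cumulus and granulosa genes and at most 0.476 for fibroblast genes in every stage. The highest zygote still held 7.13 copies of the cumulus and granulosa genes. Spermatid genes were not scarce, with median sums of 9.14 copies in oocytes, 9.61 in zygotes, 12.2 at E2C and 13.2 in mESC, the highest of any stage.

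The members differed widely in level, with medians in 8-cell embryos from 0 (Ezr) to 79.6 copies (Myl6). From the oocyte to the 16-cell embryo, 7 of the 10 rose: Actg1, Mylpf, Crip2, Tpm4, Tpm1, Myl6 and Actb. None fell. A gene was called when its log2 fold change in the limma fit on log2(copies + 1) was over 1 in size at an unadjusted p under 0.01, and 26.8% of the 11682 genes tested were called higher over the same span. The largest of these rises were in Actg1 (log2 fold change 5.18 ± 0.40, SE), Mylpf (4.94 ± 0.31) and Crip2 (4.79 ± 0.44). The median log2 fold change of the 10 members was 2.66, and that of all genes tested was 0.04. Myl12b (0.96, limma adjusted p = 0.0228), Ezr (0.90, adjusted p = 0.00304) and Myh9 (0.42, adjusted p = 0.309) stayed under the fold limit and were not called, although leaving out 16-cell embryo 4 brought a call for Myl12b (1.14). Ezr was called without 16-cell embryo 1 (1.12), in edgeR (4.03), in DESeq2 (3.70), with a pseudocount of 0.5 (1.32) and without array weights (1.04), so its size and its call depended on the method.

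The step with the most calls was the third cleavage. Between the 4-cell and the 8-cell embryo the same 7 members rose and none fell, against 4.47% of all genes tested that were called higher. Because the members were chosen with earlier results of these data known, this share is no test of them as a set. The split of the calls over all genes depended on the scaling, with 522 higher and 1227 lower in limma, 846 and 830 in edgeR, and 518 and 713 in DESeq2, and the median log2 fold change of all genes was -0.16, -0.05 and -0.20, whereas that of the members was 1.92 in limma. Both count models called the same 7 members. In 6 of the 10 (Actb, Mylpf, Myl6, Tpm1, Tpm4 and Crip2) every 8-cell embryo lay above every 4-cell embryo, a pattern seen for 4.04% of genes tested. Embryos of these stages came from 3 sequencing runs. All 7 called members were higher at 8-cell than at 4-cell in each of the 3 runs, and all 7 calls were made with the run as a block. Runs 1 and 2 hold only 1 embryo at each of these stages. The 4-cell embryo of run 2 is embryo 2, with 25411 UMIs. From 8-cell to 16-cell 1 member, Actg1, rose and none fell, against 1.9% of genes tested called higher. Neighbouring comparisons share the embryos of the stage between them, so they are not independent.

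**Figure D1:**
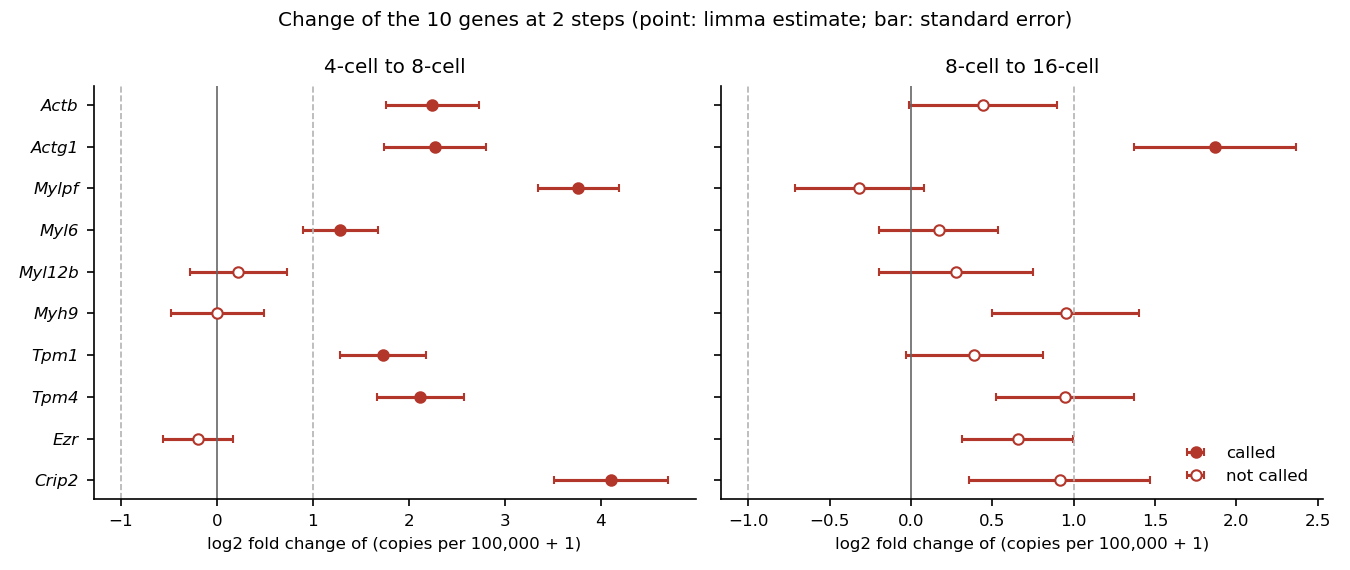
Log2 fold change of each member (limma, error bars are SE) from 4-cell to 8-cell and from 8-cell to 16-cell. Filled points were called, dashed lines mark a log2 fold change of 1 in size; 7 members lie to the right at the first step and Actg1 alone was called at the second.

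Before the 4-cell stage few members moved. No member was called from oocyte to zygote (3.24% of genes tested called in either direction), from zygote to E2C (7.27%) or from L2C to 4-cell (6.69%). At an unadjusted p under 0.01 but with a log2 fold change under 1, Actg1 was at 0.71 from oocyte to zygote and Myh9 at 0.91 from zygote to E2C, the latter rising to 1.03 and a call without E2C embryo 1. Tpm1, which had 1 UMI in all E2C embryos, was at -0.78 from zygote to E2C in limma and was called lower in edgeR (-2.82) and DESeq2 (-2.76). From E2C to L2C, the span in which the embryo's own genome becomes broadly active, Myl6 rose and Myh9 fell. That step had calls in 25.6% of genes tested upward and 22.8% downward, so 1 member in each direction is below the background.

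The actins are the filament itself. Actb (chr5:142903115-142906754, minus strand, GRCm38) encodes beta-actin, often used as a reference gene. It had 0, 1.02 and 3.09 copies as lowest, median and highest value in oocytes and 0.257, 1.08 and 2.58 in zygotes, and 5 UMIs in all 17 4-cell blastomeres. The 4-cell embryos held 0.923, 2.45, 0, 0 and 1.97 copies, and the 8-cell embryos 6.92, 10.6, 7.64 and 4.91. The groups did not overlap, and the lowest 8-cell embryo had more copies than any earlier embryo except L2C embryo 1, at 5.56 copies. The log2 fold change was 2.25 ± 0.48 (limma, adjusted p = 0.000552). The 16-cell embryos, at 10.8, 12.3, 9.72 and 6.02, overlapped the 8-cell embryos.

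Actg1 (chr11:120345690-120348542, minus strand), which encodes gamma-actin, was the more abundant actin at every stage. Both genes have similar lengths and encode nearly identical proteins. Whether any reads were assigned to the wrong gene of the pair was not tested. Oocytes held 0.974, 4.38 and 12.7 copies (lowest, median, highest) and zygotes 2.12, 6.09 and 16.4. The 4-cell embryos held 16.3, 29.9, 5.09, 5.94 and 9.95 copies, the 8-cell embryos 46.7, 71.8, 26.7 and 40.3, and the 16-cell embryos 190.0, 231.8, 169.7 and 94.3. An 8-cell embryo lay below the highest 4-cell embryo, and the 16-cell embryos lay above all 8-cell embryos. The log2 fold change was 2.27 ± 0.53 at the first step (limma, adjusted p = 0.00142) and 1.87 ± 0.50 at the second (adjusted p = 0.0371). The second call was lost without 16-cell embryo 1 (log2 fold change 1.63, limma adjusted p = 0.377). Within each of the 3 runs the order was the same. Single embryos held 16.3, 46.7 and 190.0 copies in run 1 and 29.9, 71.8 and 231.8 in run 2. The means in run 3 were 6.99, 33.5 and 132.

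Sister blastomeres held unequal Actg1 levels. The cells of the 4 16-cell embryos ranged from 69.4 to 355, 125 to 408, 40.6 to 318 and 46.6 to 227 copies, a coefficient of variation of 46.1, 34.9, 64.8 and 83.1%. Counting error at the mean UMIs per cell would give 11.4, 10.7, 22.1 and 28.0% in the same embryos. How much of the remaining spread is technical was not tested. In 32-cell embryos the median cell held 302 copies (range 126 to 431), in blastocysts 179 (118 to 384) and in mESC 116 (38.7 to 189).

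The promoter of Actg1 is shown because the serum response factor, a regulator of many actin genes, binds the CArG box, here searched as CC, 6 bases of A or T, and GG on both strands. In RefSeq promoters (GRCm38.p6, 250 bases before to 50 after the start) the box was in 535 of 32851 (1.63%) and in 2 of the 11 promoters matched to 9 members, that of Actg1 and 1 of the pair of Myl6. Actb had no entry. GGAATG, the core bound by TEAD factors, was in 14.7% of all promoters and in 1 member promoter (Tpm1), and TATAAA in 13.6% and in 1 (Myh9). The Tpm1 promoter lies at chr9:67049164-67049463, whereas the most upstream Tpm1 isoform read began at chr9:67043885. The Myl6 promoter with the box lies inside the gene, at chr10:128492960-128493259. Only PB.9507.13, on 22 of 3818 Myl6 isoform UMIs, began within it, and the leading isoform began at chr10:128494142. The stretch at chr11:120348531-120348630 (minus strand, from 135 to 36 bases before the RefSeq start) reads, with the box in capitals:
Actg1 promoter: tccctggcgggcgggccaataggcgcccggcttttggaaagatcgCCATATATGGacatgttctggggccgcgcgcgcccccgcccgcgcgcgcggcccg
Other starts of Actg1 lie within this stretch. GENCODE begins the gene at chr11:120348542, and the model of the leading Actg1 isoform begins at chr11:120348606, so that model covers the box. A match is a description of these letters and no measure of binding.

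The actin isoforms differed at the 3′ end. The leading Actb isoform, 72.5% of its 345 isoform UMIs, ended 591 bases before the annotated end, and the form that reached it took 0 of 22 UMIs of either form in oocytes, 0 of 37 at 8-cell and 2 of 58 at 16-cell. In a separate run of oocytes it took 7 of 9. Actg1 had 17 isoforms and 4019 UMIs, with the leading one at 47.9%. A minor Actg1 form removed an intron close to the 3′ end (acceptor at chr11:120346033) and made up 4 of 60 UMIs in oocytes (6.67%), 7 of 114 in zygotes (6.14%) and 7 of 40 at E2C (17.5%, exact 95% interval 7.34 to 32.8%). It was at 0 of 27 in L2C and 0 of 39 in 4-cell embryos. Later it made up 12 of 290 at 8-cell (4.14%), 87 of 1297 at 16-cell (6.71%), 127 of 1163 at 32-cell (10.9%), 52 of 826 in blastocysts (6.30%) and 4 of 104 in mESC (3.85%). In the separate run of oocytes it was in 10 of 194 (5.15%). The mean share per embryo was 2.27 points higher at 16-cell than at 8-cell, within the spread of the embryos (exact two-sided permutation test, p = 0.4).

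Among the myosin light chains, Myl6 (chr10:128490860-128494145, minus strand), the essential light chain of smooth muscle and nonmuscle myosin II, had the highest median of the 10 members in oocytes, zygotes, L2C and 4-cell embryos (Actg1 in E2C), each UMI standing for 1 molecule whatever its length. It had 5.36, 15.5 and 17.9 copies in oocytes (lowest, median, highest) and 7.62, 15.0 and 24.3 in zygotes. The E2C embryos held 7.53, 4.23, 8.41, 16.9 and 7.59 copies and the L2C embryos 16.7 to 39.1 with a median of 26.8. They overlapped narrowly, the lowest L2C embryo being L2C embryo 1, and the log2 fold change was 1.63 ± 0.36 (limma, adjusted p = 0.000115). The 4-cell embryos held 32.9, 47.2, 11.6, 42.0 and 29.1 copies and the 8-cell embryos 72.1, 59.2, 109 and 87.0, with no overlap (log2 fold change 1.29 ± 0.39, limma adjusted p = 0.0160). At 16-cell, 101, 102, 44.7 and 64.8 copies overlapped the 8-cell values.

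Myl6 molecules also differed between stages in their exons. The annotated exon 3 (chr10:128492602-128492745, GENCODE vM21) has 144 bases, or 48 codons, so that leaving it out keeps the reading frame. It is printed because it had the largest difference between neighbouring stages among the 26 exon and splice site comparisons made in the 10 genes, together with the 45-base exon (chr10:128491720-128491764) that gives the end of the protein known as its smooth muscle form and holds an in-frame stop codon, in capitals, at base 27:
Myl6 exon 3: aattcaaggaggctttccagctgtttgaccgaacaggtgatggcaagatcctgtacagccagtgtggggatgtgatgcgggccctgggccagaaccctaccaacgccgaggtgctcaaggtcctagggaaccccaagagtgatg
Myl6 45-base exon: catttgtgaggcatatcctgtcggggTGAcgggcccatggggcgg
Exon 3 was in 225 of 230 UMIs that spanned it in oocytes, 299 of 301 in zygotes and 58 of 65 at E2C, but in 63 of 132 at L2C. It was then in 103 of 134 at 4-cell, 450 of 469 at 8-cell, 843 of 885 at 16-cell, 515 of 559 at 32-cell, 444 of 465 in blastocysts and 97 of 105 in mESC. Skipping was thus most common at L2C, and less so in the stages on either side of it.

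Skipping was seen in each L2C embryo with enough molecules. Among embryos with at least 10 spanning UMIs, exon 3 was left out of 0, 23.1, 7.69 and 10% of UMIs in E2C embryos 1, 3, 4 and 5, of 64.3, 66.7, 69.2, 34.3 and 27.8% in L2C embryos 2 to 6, of 23.1, 28.8 and 15.4% in 4-cell embryos 1, 4 and 5 and of 2.87 to 5.92% in the 8-cell embryos. Among these, E2C and L2C embryos did not overlap, and neither did 4-cell and 8-cell embryos. Mean inclusion was 89.8% ± 9.59 (SD, n = 4) at E2C and 47.6% ± 19.8 (n = 5) at L2C, a difference of -42.3 percentage points with an exact two-sided permutation p = 0.0159. Adjusted over the 26 tests of exon and splice site choice in member genes it was 0.206 in the same exact test. Inclusion was 30.0 points higher at 4-cell than at L2C (exact permutation p = 0.0714) and 18.2 points higher at 8-cell than at 4-cell (p = 0.0571). Of the 26 exact tests, over 16 events, 0 had an adjusted p under 0.05 and 4 an unadjusted p under 0.05, all in Myl6. With full splice match isoforms only, the difference from E2C to L2C was -6.62 points (p = 0.371, exact permutation), since the main skipping isoform is a new combination of known sites and drops out by that choice.

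**Figure D2:**
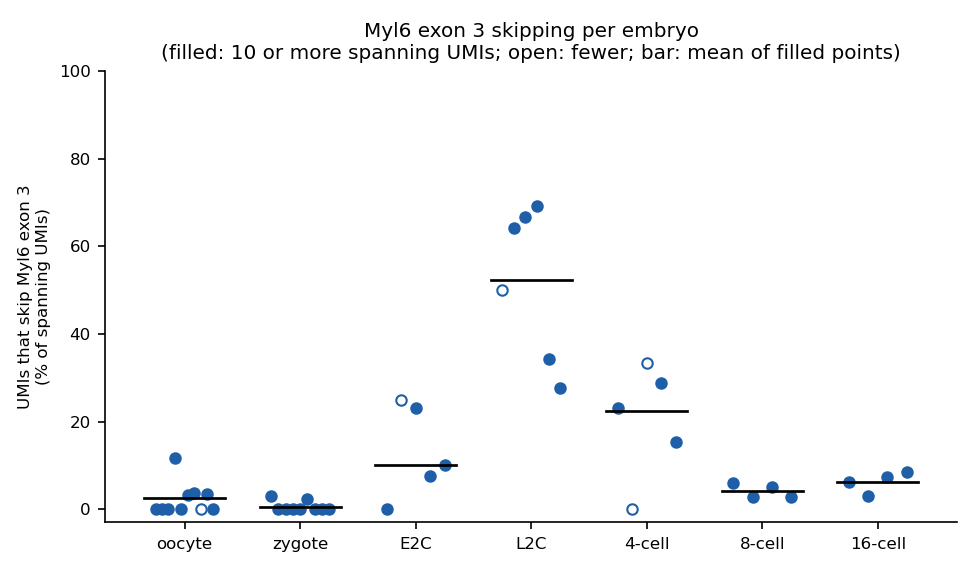
Percent of Myl6 UMIs spanning exon 3 that left it out, per oocyte, zygote or embryo by stage. Filled points have at least 10 spanning UMIs, open points fewer, and bars are means of the filled points; L2C embryos lie at 27.8 to 69.2% and 8-cell embryos at 2.87 to 5.92%.

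Skipping molecules were of 2 kinds. At L2C 54 of them joined the next annotated exon and 15 an extended exon (chr10:128492229-128492535) that belongs to a transcript annotated for nonsense-mediated decay, at 4-cell 30 and 1, at 16-cell 27 and 15, and at 32-cell 16 and 28. The skipping isoform with the annotated exon, PB.9507.5, rose from 0, 1.51, 1.46, 1.48 and 0 copies in E2C embryos to 5.03 to 22.7 in 5 of the 6 L2C embryos, the other (L2C embryo 1) being at 0. Its log2 fold change was 2.36 ± 0.47 (limma, adjusted p = 5.34e-05). The isoform with the extended exon, PB.9507.7, fell from L2C to 4-cell, where it was at 0 in all 5 embryos (-1.28 ± 0.35, limma adjusted p = 0.0268). The 45-base exon was in 0 to 6.14% of Myl6 isoform UMIs by stage, the highest share being 7 of 114 in mESC.

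Myl12b (chr17:70973133-70990890, minus strand) encodes a regulatory light chain of nonmuscle myosin II, the subunit whose phosphorylation switches the motor on. It overlaps another annotated gene model and has a near copy, Myl12a, so its level is uncertain. Its 4-cell embryos held 5.81, 0, 5.14, 4.16 and 5.13 copies, its 8-cell embryos 7.04, 2.82, 9.02 and 5.16 and its 16-cell embryos 10.0, 2.24, 6.11 and 5.33. The groups overlapped at each step and no step was called (log2 fold change 0.22 ± 0.51 from 4-cell to 8-cell, limma adjusted p = 0.878). Myl12a, by contrast, fell from 49.3 to 81.6 copies in E2C embryos to 9.99 to 31.2 in L2C embryos (-1.78 ± 0.29, limma adjusted p = 3.51e-07).

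Myl12b molecules ended at either of a pair of sites, chr17:70973930 and, 105 bases nearer the start, chr17:70974035. The nearer end took 3 of 43 UMIs in oocytes (6.98%), 6 of 32 in zygotes (18.8%), 5 of 16 at E2C (31.2%), 12 of 15 at L2C (80.0%), 15 of 19 at 4-cell (78.9%), 18 of 31 at 8-cell (58.1%), 20 of 45 at 16-cell (44.4%) and 14 of 22 at 32-cell (63.6%). All 10 oocytes, all 9 zygotes and all 5 E2C embryos held more of the longer form, whereas 4 L2C embryos held more of the shorter, 1 more of the longer and 1 (embryo 1) no UMI of either. At 16-cell, where the pooled share was lower, 3 embryos still held more of the shorter form, embryo 4 on 1 UMI, and 1 more of the longer. This pattern was picked out after its values were seen, so it is given without a test.

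**Figure D3:**
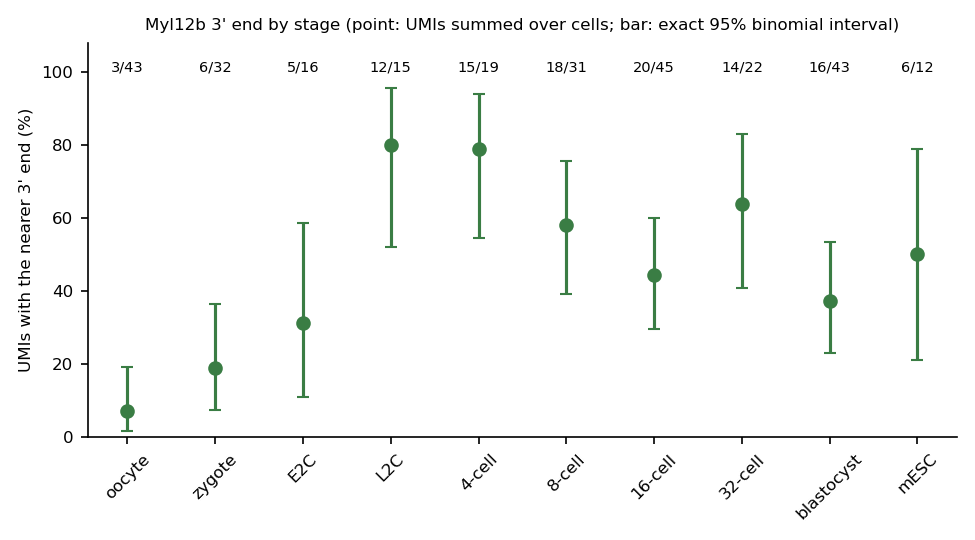
Percent of Myl12b UMIs with the nearer 3′ end by stage, with exact 95% binomial intervals that cover counting error only and the UMI counts along the top. The share is 6.98% in oocytes, 80.0% at L2C and 44.4% at 16-cell.

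Myh9 (chr15:77760587-77842175, minus strand), the heavy chain of nonmuscle myosin IIA, was the only member called lower at a step in limma. The E2C embryos held 3.39, 5.29, 5.30, 5.10 and 7.55 copies and the L2C embryos 0, 2.48, 1.58, 0.828, 1.64 and 1.75. The groups did not overlap (log2 fold change -1.25 ± 0.45, limma adjusted p = 0.0142). The call was lost without any 1 of E2C embryos 2 to 5 (-1.16 to -1.24) or without L2C embryo 1 (-1.18), and with the run as a block, a fit without the 5 embryos of unknown run (-1.05, limma adjusted p = 0.219). Afterwards Myh9 was at 0 to 2.46 copies in 4-cell embryos, 0 to 2.38 in 8-cell embryos and 2.88, 5.85, 1.45 and 0.628 in 16-cell embryos, which overlapped. No isoform of Myh9, a long transcript of which 58 isoform UMIs were read, matched an annotated splice chain in full.

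Mylpf (chr7:127208890-127214298, plus strand) encodes the regulatory light chain of fast skeletal muscle myosin. Oocytes held 0, 0.511 and 1.56 copies (lowest, median, highest), and L2C embryos 0, 1.57 and 3.96. The 4-cell embryos held 5.94, 0, 4.88, 2.31 and 3.79 copies, and the 8-cell embryos 66.7, 46.9, 69.0 and 53.6. The lowest 8-cell embryo lay well above the highest 4-cell embryo (log2 fold change 3.77 ± 0.42, limma adjusted p = 1.22e-09). The 16-cell embryos held 66.1, 39.6, 24.6 and 25.8 copies, overlapping the 8-cell embryos, with no call. Of 23 other genes of striated muscle filaments, 5 were tested and 1 rose at this step (4.47% of all genes tested were called higher), Actn2, a muscle alpha-actinin. Actn2 went from 3.30 to 13.3 copies in 4-cell embryos to 41.2 to 51.6 in 8-cell embryos (2.27 ± 0.40, limma adjusted p = 2.48e-05).

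Most Mylpf molecules, as read, did not begin at the muscle start, the first exon of the main annotated transcript (chr7:127211608-127211763). The starts given here are 5′ ends of reads, which can also lie where reverse transcription stopped early. The paper proposes such a stop for some transcripts that lack a start codon. Whether it holds for Mylpf was not tested. At 8-cell 350 of 417 Mylpf isoform UMIs (83.9%, exact 95% interval 80.0 to 87.3%) started between this exon and the second one, at chr7:127212492 to 127212635, and 14 (3.36%) at the muscle first exon. The same start took 439 of 516 at 16-cell, 266 of 320 at 32-cell, 205 of 244 in blastocysts and 46 of 62 in mESC. The muscle first exon took 10 of 62 in mESC (16.1%, interval 8.02 to 27.7%) and 0 UMIs from the oocyte to L2C. Molecules from a further exon upstream of it, where other annotated transcripts of the gene begin, were 0 of 9 in oocytes, 2 of 13 in zygotes, 2 of 9 at E2C, 6 of 15 at L2C (40.0%, interval 16.3 to 67.7%) and 0 of 16 at 4-cell, and 7 of 417 at 8-cell (1.68%). In the main transcript the muscle first exon holds only the 3 bases of the start codon, and the next in-frame ATG is codon 21, at chr7:127212918 in exon 2. GENCODE gives this ATG as the start of the coding sequence of 2 other Mylpf transcripts. Exon 2 (chr7:127212861-127212953) is printed because molecules from the internal start lack the start codon of the main transcript, with that ATG in capitals:
Mylpf exon 2: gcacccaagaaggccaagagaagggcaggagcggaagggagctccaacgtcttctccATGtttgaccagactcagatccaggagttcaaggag
The leading isoform, PB.69347.21, keeps the 211 bases of the intron after exon 2 (chr7:127212954-127213164), a length that is not a multiple of 3, so that in it the frame from this ATG runs into the intron and not on into exon 3 as annotated. Of the internal-start UMIs 210 of 350 kept this intron at 8-cell, 212 of 439 at 16-cell, 68 of 205 in blastocysts and 15 of 46 in mESC. Whether a protein is made from either form was not measured. Of the 1621 Mylpf isoform UMIs 71.4% were in the class of new isoforms built from known splice sites. This class includes forms that keep an intron, PB.69347.21 among them. Full matches to an annotated transcript were 5.92%.

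**Figure D4:**
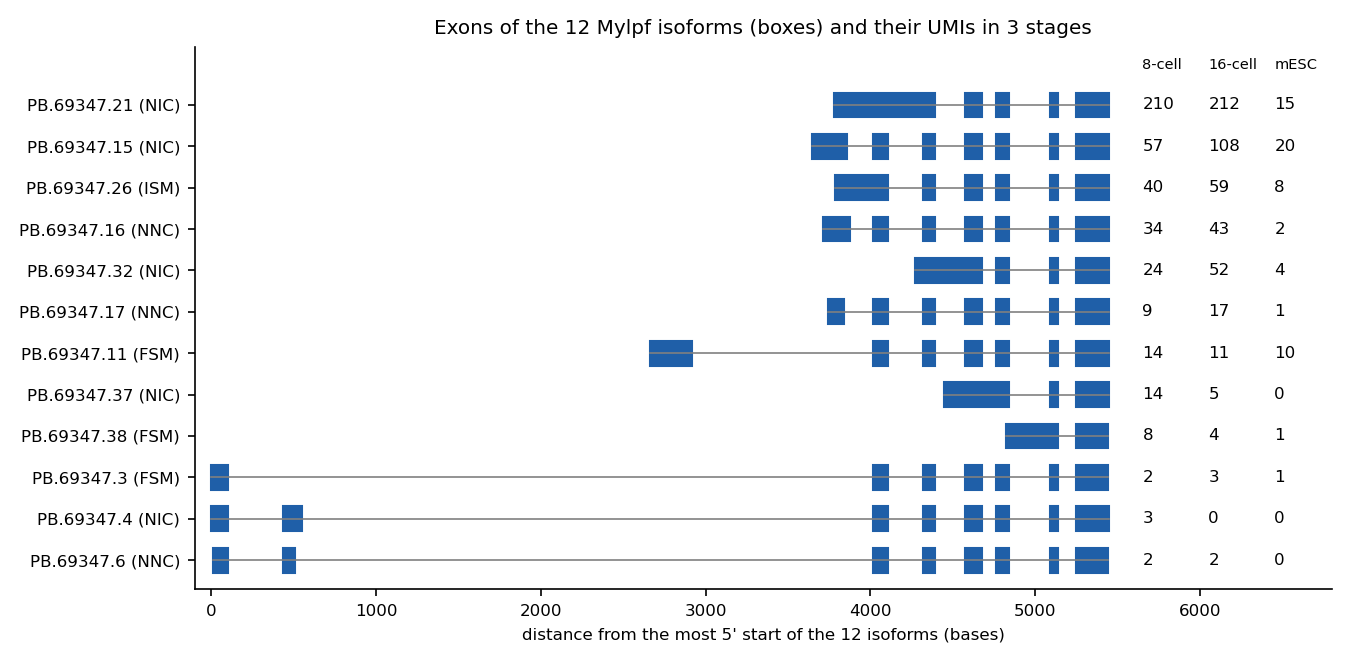
Exon maps of the 12 Mylpf isoforms against the distance in bases from the most upstream start, with the UMIs of each at 8-cell, 16-cell and mESC. The isoforms with the most UMIs start inside the gene, downstream of the muscle first exon.

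Isoform calls were made in the same way as those of the genes. Of the 85 member isoforms 38 passed the filter on low values. Isoforms such as PB.18532.72, PB.18532.76 and PB.69347.37 reached 1 copy only in 8-cell or 16-cell embryos and passed through these alone. From 4-cell to 8-cell and from oocyte to 16-cell they could be called only as rises. The counts of rises and falls over these spans are thus partly set by the filter. From 4-cell to 8-cell 17 rose and 0 fell (3.63% of the 29409 isoforms tested rose): 7 of 8 in Mylpf, 3 of 9 in Actg1, 2 of 4 in Crip2, 2 of 10 in Myl6, 1 of 2 in Actb and 1 each in Tpm1 and Tpm4. The leading Mylpf isoform, PB.69347.21, went from 5.13, 0, 1.79, 0.696 and 0.690 copies to 37.2, 31.9, 29.8 and 29.0 (4.01 ± 0.44, limma adjusted p = 2.53e-09). From 8-cell to 16-cell 9 rose, 6 of them in Actg1 and 1 each in Crip2, Myl6 and Tpm4, and 1 fell (1.05% and 0.921% of isoforms tested). Of these genes only Actg1 was itself called at this step. The 1 that fell was PB.69347.11, the Mylpf form with the muscle first exon, from 2.16, 0.941, 5.25 and 2.73 copies to 0.197, 1.70, 0 and 0.733. These groups overlapped and rest on 14 and 11 UMIs (-1.09 ± 0.23, limma adjusted p = 0.0054), and the call was lost without 16-cell embryo 1, without 8-cell embryo 3, without 8-cell embryo 4 and in edgeR (-0.65). The number of calls upward and downward at this step was 4 without 16-cell embryo 1, 5 without 16-cell embryo 2 and 6 without 8-cell embryo 3 or in edgeR. Earlier, 1 member isoform rose from E2C to L2C (12.9% of isoforms tested), 1 fell from L2C to 4-cell (1.68%), and none was called from oocyte to zygote (1.48% in either direction) or from zygote to E2C (5.18%). Without E2C embryo 3 the calls from E2C to L2C were 3, without E2C embryo 5 or L2C embryo 1 they were 2, and without E2C embryo 4 there was 1 from zygote to E2C. From oocyte to 16-cell 29 rose and 0 fell (15.8%), among them 1 of Myl12b, a gene not called over this span.

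The tropomyosins rose at the same step as the actins. Tpm1 (chr9:67022590-67049406, minus strand) was at 0 in 5 of 10 oocytes and in 4 of 5 E2C embryos. The 4-cell embryos held 2.93, 2.45, 1.58, 2.43 and 0 copies, the 8-cell embryos 7.06, 7.47, 6.20 and 5.17, and the 16-cell embryos 12.2, 6.19, 4.68 and 7.83. The 8-cell embryos lay above all 4-cell embryos (log2 fold change 1.73 ± 0.45, limma adjusted p = 0.00424). The call was lost without 4-cell embryo 5, the one at 0 (1.16, limma adjusted p = 0.145), and with a pseudocount of 5 copies (0.83). Tpm4 (chr8:72134975-72153142, plus strand) went from 1.15, 0, 0, 2.89 and 0 copies at 4-cell to 5.11, 7.82, 10.2 and 6.11 at 8-cell, again with no overlap (2.12 ± 0.45, limma adjusted p = 0.000491), a call lost with a pseudocount of 5 (0.96). Its 16-cell embryos, at 17.1, 12.2, 13.05 and 6.26, overlapped the 8-cell ones (0.95, limma adjusted p = 0.356), and without 16-cell embryo 4 the step was called (1.15).

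Tpm1 uses 1 of a pair of internal exons of equal length that code for the same stretch of the coiled coil, an upstream one (chr9:67032466-67032541) and a downstream one (chr9:67031951-67032026). They are identical at 43 of 76 positions (56.6%). Both are printed, from GENCODE vM21 transcripts on GRCm38, with the 33 differing bases in capitals:
Tpm1 upstream exon: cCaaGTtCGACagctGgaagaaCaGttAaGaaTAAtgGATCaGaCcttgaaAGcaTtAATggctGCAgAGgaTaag
Tpm1 downstream exon: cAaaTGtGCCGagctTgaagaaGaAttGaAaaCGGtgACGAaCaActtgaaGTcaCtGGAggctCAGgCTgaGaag
The downstream exon was in 3 of 5 spanning UMIs in oocytes and 3 of 7 in zygotes, and in 8 of 18 in the separate oocyte run. From the 8-cell stage on it was in 1 of 30, then 0 of 35 at 16-cell, 0 of 22 at 32-cell and 0 of 35 in blastocysts. The counts before 8-cell were too few per embryo for a test.

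Ezr (chr17:6738041-6782784, minus strand) encodes ezrin, which marks the apical, microvillus-bearing surface of outer blastomeres. It was at 0 in 8 of 10 oocytes, had 0 UMIs in L2C and was at 0 to 2.45 copies in 4-cell and 0 to 1.08 in 8-cell embryos. The 16-cell embryos held 0.424, 6.68, 1.17 and 0 copies, and 38 of the 40 UMIs of that stage were in embryo 2. They overlapped the 8-cell embryos and the step was not called (0.66, limma adjusted p = 0.473), but it was called without 8-cell embryo 1 (1.01) and in edgeR (2.73). The summed level of 6 trophectoderm genes was 51.0, 47.1, 37.9 and 52.1 in the same 16-cell embryos, so embryo 2, high in Ezr, was not the highest in these genes. Of the 38 16-cell blastomeres 25 had no Ezr UMI, and at 32-cell 9 of 22 had none, with a median of 2.51 copies there and 4.65 in blastocysts.

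Crip2 (chr12:113140236-113145506, plus strand) encodes a protein of LIM domains from the cysteine-rich family, several of which bind actin-associated proteins. Oocytes held 0.487, 2.24 and 7.42 copies (lowest, median, highest). The 4-cell embryos held 6.09, 10.0, 0, 2.96 and 0.598 copies, the 8-cell embryos 46.9, 33.8, 49.2 and 68.7 and the 16-cell embryos 115, 57.5, 97.5 and 71.5. The 8-cell embryos lay above all earlier embryos (4.11 ± 0.60 from 4-cell, limma adjusted p = 5.85e-07), and the 16-cell embryos overlapped them (0.91, limma adjusted p = 0.601). Blastocyst cells held a median of 112 copies (54.9 to 164) and mESC 16.4 (7.01 to 25.8), so the ranges of the embryo-derived and the cultured cells did not overlap. For Mylpf the order was the other way round, with medians of 40.7 in blastocysts and 61.6 in mESC, but the ranges overlapped (21.4 to 73.5 and 35.0 to 94.7). Of the 2523 Crip2 isoform UMIs 89.7% were of 1 isoform, a full match to the annotation.

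Levels in the late cells are given for the other members. The medians at 32-cell, in blastocysts and in mESC were 94.9, 83.7 and 112 copies for Myl6, 14.8, 9.87 and 17.2 for Actb, 11.1, 9.43 and 8.80 for Tpm1 and 12.8, 13.8 and 22.0 for Tpm4. Myl12b was at 2.76, 9.43 and 14.0, and Myh9 at 3.63, 3.95 and 0, with 3 of the 5 mESC lacking a Myh9 UMI.

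Other genes of the same machinery were called in both directions. Of 134 further genes in 11 lists of actin, myosin and their regulators, 90 passed the filter, and 12 of these rose and 6 fell from 4-cell to 8-cell, where 4.47% of all genes tested were called higher and 10.5% lower. The crosslinkers had 4 up and 0 down of 12 tested, the genes for monomer binding, severing and capping 4 up and 1 down of 18 and the Arp2/3 complex 1 up and 2 down of 17, whereas the formins, which start straight filaments, had 0 up and 1 down of 8. Lasp1, a LIM and SH3 adaptor of actin, rose from a mean of 1.07 to 12.2 copies (log2 fold change 2.94), Capzb, a subunit of the protein that caps filament ends, from 1.41 to 14.5 (2.41), and Tmsb10, which binds actin monomers, from 57.7 to 139 (1.37). Cfl2, a severing protein, fell from 24.1 to 6.70 (-1.89) and Arpc1a, a subunit of Arp2/3, from 17.6 to 3.36 (-2.06). From 8-cell to 16-cell 3 rose, among them the calponin Cnn3 (13.3 to 33.1, 1.29), and 0 fell, beside 1.9% and 1.46% of all genes tested.

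The 90 further genes had more calls from E2C to L2C, with 10 up and 26 down, beside backgrounds of 25.6% and 22.8%. The formins had 0 up and 6 down of 8 tested, including Fmn2, which positions the oocyte spindle (means 35.5 to 1.13, -4.05). Pdlim1, a LIM protein of stress fibres (23.4 to 1.67, -3.26), and Rdx, a relative of ezrin (28.5 to 6.63, -2.67), also fell. Arpc1a rose from 1.16 to 28.1 (3.62), the contractility switch Rhoa from 7.20 to 48.2 (2.55) and the tropomyosin Tpm3 from 6.56 to 21.5 (1.71). The actins, represented by Actb and Actg1, had no call at this step.

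In a separate run, 4 intact oocytes and 12 parts of oocytes cut in 2 or 4 were read, with 129744 to 289774 UMIs each. No Mylpf UMI was found among the 3242039 UMIs of these columns, and a gene with no isoform listed was counted as 0. Up to 0.0925 copies are thus allowed only if no Mylpf isoform had been filtered out, which is not known. Oocytes of the other runs had a median of 0.366 copies of Mylpf in the isoform table. Actg1 was at similar medians (4.56 copies in intact and 3.79 in the other oocytes), and Myl6 was at 7.11 in intact against 19.6 in the others. The run and the oocytes cannot be told apart here. Exon 3 of Myl6 was in 205 of 225 spanning UMIs of this run.

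The genes most like each member were found by Pearson's r over the 43 embryos on log2(copies + 1), among 6091 genes with a mean of at least 5 copies in at least 1 stage. All points share the rise in stage and the fall in depth, so the values are descriptions. The closest were Lrpap1 (0.929), Hsp90ab1 (0.913) and Npm1 (0.903) for Mylpf, Ass1 (0.875), Slc25a5 (0.864) and Perp (0.855) for Crip2, Ass1 (0.868), Cyp2s1 (0.844) and Stard10 (0.843) for Tpm4, and Eef1a1 (0.846), Crip2 (0.841) and Ndufs5 (0.840) for Actg1. For Actb they were Psmc6 (0.834), Actg1 and Ass1 (0.825), for Tpm1 Nid1 (0.836), Pramel5 and Slc6a8 (both 0.831), and for Myl6 Rpl10-ps3 (0.868), Hspa8 (0.866) and Alg5 (0.857). The 3 members that were not called at 8-cell had weaker neighbours, with the highest at 0.704 for Myl12b (Mrpl35), 0.661 for Ezr (Scd2) and 0.620 for Myh9 (Mtmr2). Ass1 was thus among the 3 nearest genes of Actb, Tpm4 and Crip2.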

How the data were processed

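The members and gene lists were chosen with earlier results of these data known. The authors split joined reads with SMRT-Link and scISA-Tools, aligned them to mm10 with minimap2, collapsed them with cDNA_Cupcake and classed isoforms with gffcompare and SQANTI3. They deposited gene and isoform values per 100000 UMIs of a cell for runs 1 to 3 (the study's copy number, a CPM-like unit), and left out isoforms seen in under 5 cells, so that a cell's isoform values sum to 84419 to 97144. Columns of the oocyte, zygote, 2-cell, 4-cell, blastocyst and mESC cells, recorded as a score because each stands for 1 cell of a pooled table, are in the same unit made by the authors. For run 4 the deposited file holds whole UMI counts of 49271 isoforms in 16 columns. The deposited exon coordinates of the isoforms were used as given. 

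Values were divided by the value of 1 UMI in each cell, and 100.0% of them came out whole within 0.1. Replicates were oocytes, zygotes or embryos, as the mean of their cells. Log2(value + 1) was fitted with limma 3.58.1 in R 4.3.3, in 1 model over 7 stages with a mean trend and array weights, for features with at least 1 copy in at least 4 embryos. A call was a log2 fold change over 1 in size at a two-sided p under 0.01, and adjusted p-values are Benjamini-Hochberg over all features. Fold changes on this scale understate changes of scarce genes. Shares of an exon or splice site were compared by exact permutation over embryos with at least 10 spanning UMIs, for events between 5 and 95% in some stage. Recovered UMIs, summed per embryo, were tested with edgeR 4.0.16 and DESeq2 1.42.0 as alternatives. Other alternatives were pseudocounts of 0.5 and 5, no filter, no array weights, summed UMIs, gene values from the isoform table, leaving out each embryo of stages with 4 or 5, and, chosen after seeing the data, the run as a block, no L2C embryo 1 and no cells under 10000 UMIs. Runs were read by matching 49 cells to barcodes over 998 genes. With L2C embryo 1, 4-cell embryo 2 and 16-cell embryo 4 placed by the cell counts that remained, 38 of 43 embryos had a run. The limma step was tested on simulated data. Intervals cover counting error only, since a UMI stands for 1 amplified molecule. Genes named beside the members are the 3 with the highest Pearson r with each and, in each list and step, up to 2 rises and 2 falls among called genes with at least 10 copies and no overlap of embryos. Loci are from GENCODE vM21 on GRCm38 (mm10) and promoters from RefSeq.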

Additional observations from a re-analysis of the deposited data

Results flagged for a closer look

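In 10 of 69 sets of member levels within a stage, 1 oocyte, zygote or embryo lay far from the others by Dixon's test. Chance gives about 1 of 20 where values spread continuously. Many of these values are steps of single UMIs, so that rate cannot be set against the 10 of 69. At L2C, embryo 1, a single cell of 17971 UMIs, was highest in Actg1 (27.8 copies on 5 UMIs, others 1.58 to 10.5), Crip2 (16.7 copies on 3 UMIs, others 0 to 2.76) and Tpm4 (5.56 copies on 1 UMI, others 0 to 0.861). Oocyte 7 held 12.7 copies of Actg1 on 25 UMIs, against 0.974 to 6.25 in the other oocytes. For Myl12b, zygote 4 was at 6.18 copies (others 0.406 to 3.25), E2C embryo 3 at 6.04 (others 1.09 to 2.07) and 4-cell embryo 2 at 0 (others 4.16 to 5.81). For Ezr, 4-cell embryo 2 was at 2.45 copies on 1 UMI and 8-cell embryo 1 at 1.08 on 3 UMIs, and for Tpm1, E2C embryo 1 was at 0.652 on 1 UMI, with the other embryos of that stage at 0. Leaving out L2C embryo 1 changed 1 member call, that of Myh9 from E2C to L2C.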

How the results depend on the processing

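The 7 member rises from 4-cell to 8-cell were called under every alternative except a pseudocount of 5 (Tpm1 and Tpm4 lost) and leaving out 4-cell embryo 5 (Tpm1 lost); the cause was not tested. From zygote to E2C 1 member gene was called with edgeR, with DESeq2 and with a pseudocount of 0.5 (0 in limma). From E2C to L2C 1 was called with isoform sums, with no filter, with a pseudocount of 0.5 or 5 and with the run as a block (2 in limma). From 8-cell to 16-cell 3 were called with edgeR (1 in limma), Ezr (2.73) and Myh9 (1.70) being added. For isoforms, the run as a block gave 2 calls from E2C to L2C (1 in limma) and edgeR 6 from 8-cell to 16-cell (10 in limma). Leaving out 1 embryo at a time of the stages with 4 or 5, or L2C embryo 1, but no oocyte or zygote, gave 0 to 1, 1 to 2, 0 to 0, 6 to 7 and 0 to 2 member genes over the 5 steps from zygote to 16-cell, 7 to 8 from oocyte to 16-cell and 9 to 11 in all. For isoforms it gave 0 to 1, 1 to 3, 1 to 1, 14 to 19 and 4 to 13, then 21 to 31 from oocyte to 16-cell and 23 to 31 in all. For exon choice, most pairs of stages hold too few embryos for the exact test to pass after adjustment, so leaving embryos out says nothing about stability there. Ezr was called from oocyte to 16-cell with DESeq2 (3.70), edgeR (4.03), no array weights (1.04) and a pseudocount of 0.5 (1.32). The isoform PB.69347.32 reversed from 8-cell to 16-cell without 16-cell embryo 1, the values with 1 embryo left out running from -0.28 to 1.39, and Myl6 exon 3 from 4-cell to 8-cell with full splice matches only (-0.721 points), by construction. Of the values recomputed, 2461 kept their direction and side of the threshold, 100 lost a call, 62 gained one and 2 reversed. No paired analysis was possible because embryos of different stages are different animals; the sequencing run, which stages share, was fitted as a block instead, as above. At 4985 UMIs, 1 UMI of the shallowest cell is over 20 copies, so scarce members could not be compared between single blastomeres.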
